A study of Mus musculus with 6 samples.

Results

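A set of 38 genes of the extracellular matrix and of the fibroblasts that make it was followed in macrophage cultures of 2 genotypes. The genes were chosen by name, with earlier results of these data known. They are collagens, proteoglycans, matrix glycoproteins, enzymes and chaperones of matrix assembly, and surface and contractile markers of stromal cells. Of the 38, 37 had a probe set naming that gene alone, out of 19938 genes represented on the arrays, and 36 of these were bright enough to be tested, out of 12649 tested genes. Fbn1, the gene of the microfibril protein fibrillin, had no such probe set in the annotation used and was not analysed here. Lum, the gene of the proteoglycan lumican, lay below the intensity filter of log2 7.49 in both groups, with 5.31, 5.36 and 5.35 in the arrays labelled KLF2∆/∆ and 5.48, 5.70 and 5.56 in LysMCre/Cre arrays.

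Of 6 arrays, 3 carried the label KLF2∆/∆ and 3 the label LysMCre/Cre. Mice of both genotypes were C57BL/6, aged 8 weeks, and carried Cre recombinase in the lysozyme gene Lyz2, which is active in myeloid cells and not known as a fibroblast gene; in the KLF2∆/∆ mice this Cre acts on a floxed Klf2. Each mouse received 2 ml of thioglycolate broth, and the peritoneal cells taken 72 h later attached for 4 h, stood for 24 h more and then met lipopolysaccharide (LPS) at 100 ng/ml for 6 h. Washing off unattached cells was the only purification named, so any adherent cell could contribute RNA, and no array without LPS was analysed here.

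Fibroblasts secrete collagen chains that wind into triple helices, are cross-linked outside the cell by lysyl oxidases and are bound by small proteoglycans and glycoproteins. In the peritoneal wall, fibroblasts and mesothelial cells lay down most of this matrix, and platelet-derived growth factor receptors and discoidin domain receptors at their surface sense growth factors and collagen. Some of the genes are not limited to stroma: fibronectin, osteonectin (Sparc) and vimentin are also made by macrophages.

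The targeted gene was read as a check of the labels and had more signal where it is labelled as deleted. Klf2 gave log2 intensities of 9.10, 9.25 and 9.21 in the arrays labelled KLF2∆/∆, against 8.88, 8.97 and 8.94 in LysMCre/Cre arrays, a difference of 0.26 ± 0.064 (SE; limma adjusted p = 0.00398). The sources used here do not place the probes relative to the floxed part, so directions below go by the arrays' labels alone. The median log2 intensity per array lay between 7.85 and 7.90. The submitters' design notes describe mice in pairs, while the array labels give only genotype, treatment and replicate number. Which mouse or pair each array came from is thus unstated. The p-values below reflect array-to-array spread, which may lie between mice or be technical.

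Most of the matrix and fibroblast genes were lower in the arrays labelled KLF2∆/∆. Among 36 tested members there were 29 falls and 1 rise, and 6 genes did not pass (limma with an intensity trend, Benjamini-Hochberg adjusted p of 0.05 over all tested genes). Among all 12649 tested genes, 16.2% fell and 13.6% rose by the same rule, 29.8% in all. Since the members were chosen with earlier results of these data known, this contrast is a description. The members' median log2 difference (arrays labelled KLF2∆/∆ minus LysMCre/Cre arrays) was -0.52, against 0.0019 over all tested genes. A fall of at least 0.5 was called for 19 of the 36 members and for 3.45% of all tested genes, and a fall of at least 1 for 3 members (Pdgfra, Cyr61 and Ddr2) and 0.506% of genes. The 3 values of each group did not overlap in 31 members that were lower and 1 that was higher, against 21.4% and 19.3% of all tested genes. Fewer stromal cells on the plate and less of each RNA per cell cannot be told apart in such bulk RNA. Among the 36, only Postn had a group mean under the filter, at 7.48 in LysMCre/Cre arrays.

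**Figure D1:**
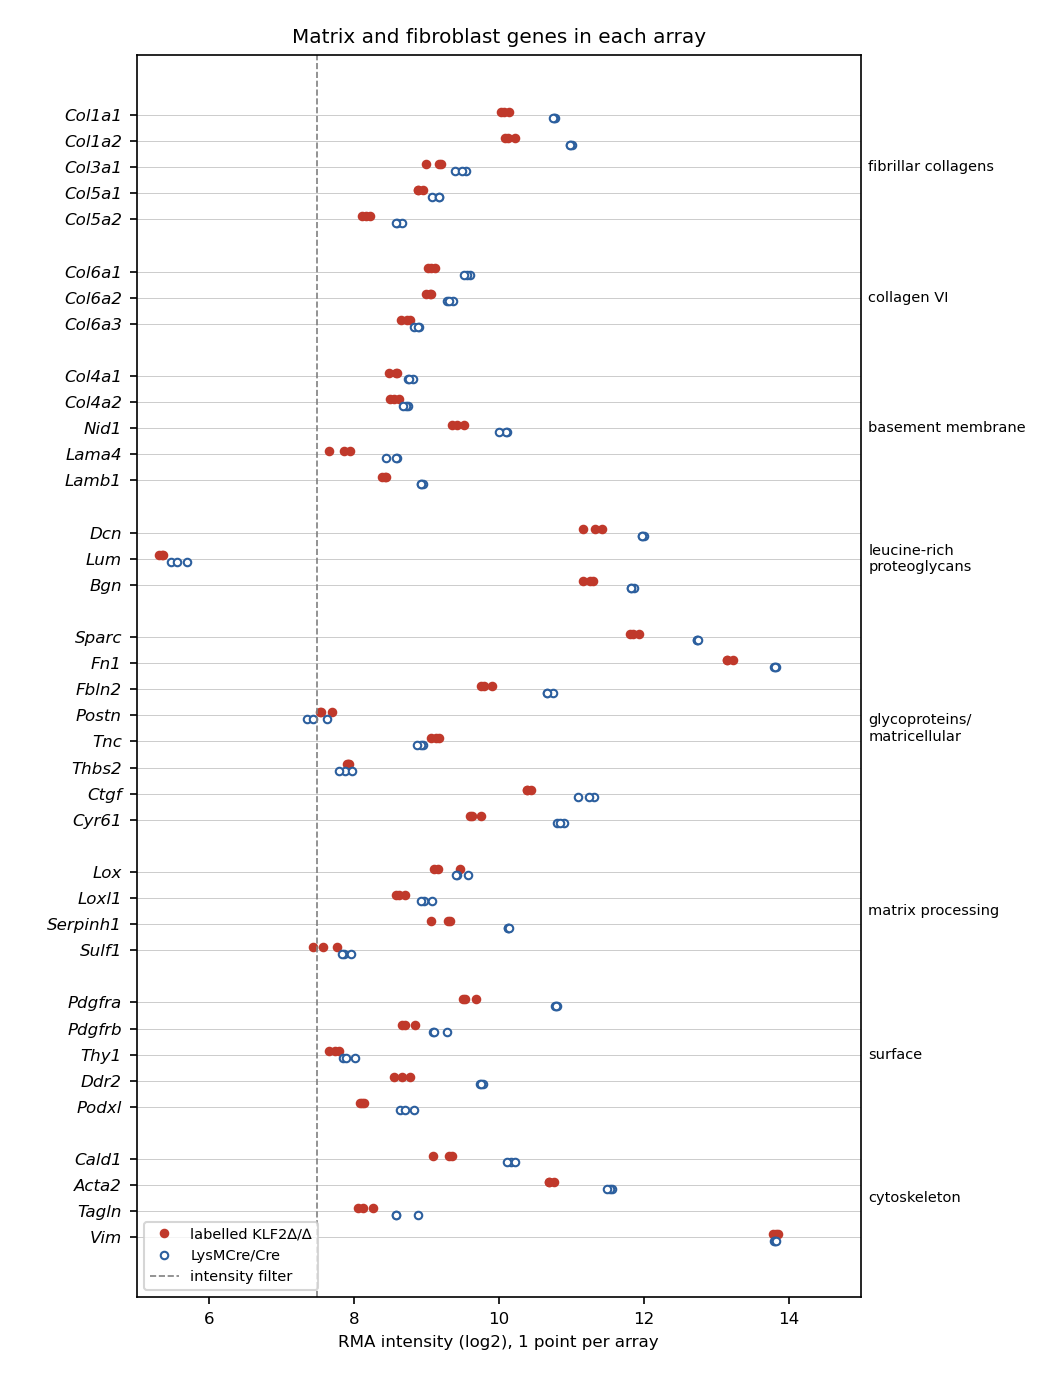
RMA intensity (log2 scale) of the 37 genes with a probe set, with 1 point per array, filled for arrays labelled KLF2∆/∆ and open for LysMCre/Cre arrays; the dashed line is the intensity filter at 7.49. In 31 tested genes all filled points lie left of all open points, while Vim, Thbs2, Postn and Lox overlap and Tnc lies the other way.

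To show the DNA in front of genes at either end of the list, promoter sequence from RefSeq (assembly GRCm38.p6) is given for Pdgfra and Cyr61 (current symbol Ccn1), the 2 largest falls, for the collagen gene Col1a2, and for Tnc, the 1 gene called higher. Each is the 250 bases before the annotated start, 5′ to 3′ on the gene's strand. They lie at chr5:75152001-75152250 (plus strand), chr3:145649986-145650235 (minus strand), chr6:4505368-4505617 (plus strand) and chr4:64047016-64047265 (minus strand; the first listed start of this gene). Capitals mark matches on either strand to 4 short motifs, none overlapping another: the TATA box, searched as TATAAA; the CCAAT box, by its own letters; the core bound by TEAD factors, searched as GGAATG; and the GC box, searched as GGGCGG.
Pdgfra: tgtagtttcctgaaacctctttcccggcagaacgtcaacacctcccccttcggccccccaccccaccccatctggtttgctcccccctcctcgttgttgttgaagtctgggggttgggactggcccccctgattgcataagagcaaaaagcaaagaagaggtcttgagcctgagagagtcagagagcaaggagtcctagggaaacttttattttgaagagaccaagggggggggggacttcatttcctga
Cyr61: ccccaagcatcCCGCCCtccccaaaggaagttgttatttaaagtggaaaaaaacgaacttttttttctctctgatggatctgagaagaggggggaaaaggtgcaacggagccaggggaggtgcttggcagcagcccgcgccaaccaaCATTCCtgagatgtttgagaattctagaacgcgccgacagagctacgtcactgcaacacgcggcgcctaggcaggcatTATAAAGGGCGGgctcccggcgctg
Col1a2: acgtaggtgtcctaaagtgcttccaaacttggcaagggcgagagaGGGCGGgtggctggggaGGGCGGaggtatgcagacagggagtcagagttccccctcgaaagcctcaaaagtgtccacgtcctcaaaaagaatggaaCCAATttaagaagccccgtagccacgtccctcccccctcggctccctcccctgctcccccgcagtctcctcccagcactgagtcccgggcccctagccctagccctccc
Tnc: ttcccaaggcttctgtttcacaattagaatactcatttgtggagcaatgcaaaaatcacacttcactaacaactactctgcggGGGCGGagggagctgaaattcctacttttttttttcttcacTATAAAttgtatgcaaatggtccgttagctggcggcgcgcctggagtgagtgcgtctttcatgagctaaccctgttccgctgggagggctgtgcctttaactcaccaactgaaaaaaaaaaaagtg

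The Cyr61 window held a TATA box match beginning 25 bases before the start, directly followed by a GC box. It also held a TEAD core match beginning 103 bases and a further GC box match beginning 239 bases before the start. In the Col1a2 window the CCAAT box began 109 bases before the start, with GC boxes at 205 and 188 bases. The Tnc window held a TATA box match 126 bases and a GC box 167 bases before the start, and the Pdgfra window held none of the 4 motifs. RefSeq's table had 28 such windows for 24 of the 38 members. Of these windows, 9 (32.1%) held the TATA box, 8 (28.6%) the CCAAT box, 6 (21.4%) the TEAD core and 14 the GC box. Among all 32851 windows in the table the shares were 12.4% for the TATA box, 33.8% for the CCAAT box, 12.6% for the TEAD core and 32.7% for the GC box. The members' TATA box windows belonged to 8 genes. Of these, Cald1, Cyr61, Col3a1 and Ddr2 were called lower, Tnc was called higher, and Postn, Thbs2 and Vim were not called. A match is a run of letters and not a shown binding site, and the motifs were chosen with the expression results known.

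The fibrillar collagens, which form the load-bearing fibres of connective tissue, were lower in 5 of 5 cases. Col1a1 and Col1a2 encode the chains of type I collagen. Col1a1 gave 10.07, 10.14 and 10.03 (log2 intensity) in the arrays labelled KLF2∆/∆, against 10.78, 10.76 and 10.75 in LysMCre/Cre arrays. For Col1a2 the values were 10.09, 10.22 and 10.13 in the arrays labelled KLF2∆/∆ and 11.01, 10.98 and 10.99 in LysMCre/Cre arrays. In both genes every array labelled KLF2∆/∆ lay under every LysMCre/Cre array. Col1a2 fell by 0.85 ± 0.052 (SE, 1.80-fold, adjusted p = 1.36e-10) and Col1a1 by 0.68 ± 0.052 (1.60-fold, adjusted p = 2.85e-09). The chain of type III collagen, Col3a1, fell by 0.36 (adjusted p = 0.000375), and the type V chains Col5a2 and Col5a1, which help to start fibrils, fell by 0.44 and 0.24 (adjusted p = 3.17e-05 and 0.00561). The 95% intervals of Col1a2 (-0.95 to -0.74) and Col3a1 (-0.50 to -0.22) did not meet; no test of the difference between members was made.

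Collagen VI, a beaded-filament collagen that links cells to fibres, fell for 2 of its 3 chains. Col6a1 was at 9.12, 9.02 and 9.07 in the arrays labelled KLF2∆/∆ and at 9.61, 9.56 and 9.52 in LysMCre/Cre arrays. Col6a2 was at 8.99, 9.06 and 9.05 in the arrays labelled KLF2∆/∆ and at 9.29, 9.37 and 9.32 in LysMCre/Cre arrays. The groups did not overlap for either chain, and Col6a1 fell by 0.50 ± 0.060 (SE, adjusted p = 2.08e-06) and Col6a2 fell by 0.29 ± 0.060 (adjusted p = 0.000804). Col6a3 differed by -0.15 (95% interval -0.29 to -0.02) and did not pass (adjusted p = 0.0828).

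The basement membrane, the sheet under mesothelium and around vessels, contributed 5 members, of which 4 fell. Nid1, the gene of nidogen, which ties laminin to collagen IV, gave 9.35, 9.52 and 9.42 in the arrays labelled KLF2∆/∆ and 10.12, 10.10 and 10.01 in LysMCre/Cre arrays. The laminin chain gene Lama4 gave 7.86, 7.94 and 7.66 in the arrays labelled KLF2∆/∆ and 8.44, 8.59 and 8.58 in LysMCre/Cre arrays. For Lamb1, another laminin chain, the values were 8.43, 8.44 and 8.39 in the arrays labelled KLF2∆/∆ and 8.92, 8.95 and 8.93 in LysMCre/Cre arrays. All 3 were without overlap: Nid1 fell by 0.64 ± 0.061 (SE, adjusted p = 6.98e-08), Lama4 fell by 0.72 ± 0.080 (adjusted p = 6.83e-07) and Lamb1 fell by 0.51 ± 0.063 (adjusted p = 2.27e-06). The collagen IV chains differed less. Col4a1 fell by 0.22 (adjusted p = 0.0131), a call lost without LysMCre/Cre replicate 1 (-0.20, adjusted p = 0.0709), and Col4a2 differed by -0.16 and did not pass (adjusted p = 0.0797).

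Both tested small leucine-rich proteoglycans, which coat collagen fibrils and bind growth factors, fell. Decorin (Dcn) had log2 intensities of 11.33, 11.43 and 11.16 in the arrays labelled KLF2∆/∆ and of 11.98, 12.00 and 11.98 in LysMCre/Cre arrays. Biglycan (Bgn) had 11.26, 11.30 and 11.16 in the arrays labelled KLF2∆/∆ and 11.86, 11.82 and 11.82 in LysMCre/Cre arrays. The 3 LysMCre/Cre values of Dcn differed by little (SD 0.0099), while the arrays labelled KLF2∆/∆ varied more (SD 0.14, replicate 3 lowest). Dcn fell by 0.68 ± 0.054 (SE, 1.60-fold, adjusted p = 5.24e-09), and Bgn fell by 0.59 ± 0.045 (1.51-fold, adjusted p = 3.50e-09). Lum is the neighbour of Dcn on chromosome 10, with no protein-coding gene between them in RefSeq. Its difference, tested only where no intensity filter was set, was -0.24 (adjusted p = 0.0748), at intensities that are not told from background.

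Glycoproteins and matricellular proteins, secreted proteins that act on cells as much as on structure, showed 5 falls and 1 rise among 8 tested genes, with the other 2 not passing. Cyr61, an integrin ligand and early response gene of growth factors and stretch, had the largest fall of the group. Its values were 9.63, 9.76 and 9.61 in the arrays labelled KLF2∆/∆ and 10.90, 10.80 and 10.84 in LysMCre/Cre arrays, and it fell by 1.18 ± 0.056 (SE, 2.27-fold, adjusted p = 5.89e-12). Its relative Ctgf (current symbol Ccn2), a profibrotic matricellular protein, gave 10.39, 10.44 and 10.39 in the arrays labelled KLF2∆/∆ and 11.32, 11.10 and 11.24 in LysMCre/Cre arrays. Ctgf thus fell by 0.82 ± 0.055 (1.76-fold, adjusted p = 6.43e-10), again with no overlap.

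Sparc, a collagen-binding protein, was at 11.85, 11.93 and 11.81 in the arrays labelled KLF2∆/∆ and at 12.73, 12.74 and 12.75 in LysMCre/Cre arrays. Fbln2, the gene of fibulin-2, an elastic fibre and basement membrane protein, was at 9.80, 9.90 and 9.76 in the arrays labelled KLF2∆/∆ and at 10.67, 10.75 and 10.66 in LysMCre/Cre arrays. Both fell by 0.88, with SE of 0.039 for Sparc and 0.055 for Fbln2 (adjusted p = 2.22e-12 and 2.38e-10). Fn1, the gene of fibronectin, was at 13.15, 13.23 and 13.15 in the arrays labelled KLF2∆/∆ and at 13.80, 13.82 and 13.81 in LysMCre/Cre arrays. At this level, close to the top of the scale, it fell by 0.63 ± 0.031 (1.55-fold, adjusted p = 8.91e-12).

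Tnc, the gene of tenascin-C, an adhesion-modulating glycoprotein induced in injury and inflammation, was the 1 member that rose. It gave 9.06, 9.17 and 9.14 in the arrays labelled KLF2∆/∆ and 8.96, 8.92 and 8.87 in LysMCre/Cre arrays. The groups did not overlap, and the rise was 0.21 ± 0.063 (SE, 1.15-fold, adjusted p = 0.0163). The call was lost without LysMCre/Cre replicate 2 (0.21, adjusted p = 0.0559) and without LysMCre/Cre replicate 3 (0.18, adjusted p = 0.0897). Periostin (Postn) differed by 0.12 (95% interval -0.06 to 0.30, adjusted p = 0.333) and thrombospondin-2 (Thbs2) by 0.038 (-0.11 to 0.19, adjusted p = 0.751), with overlapping groups in both.

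**Figure D2:**
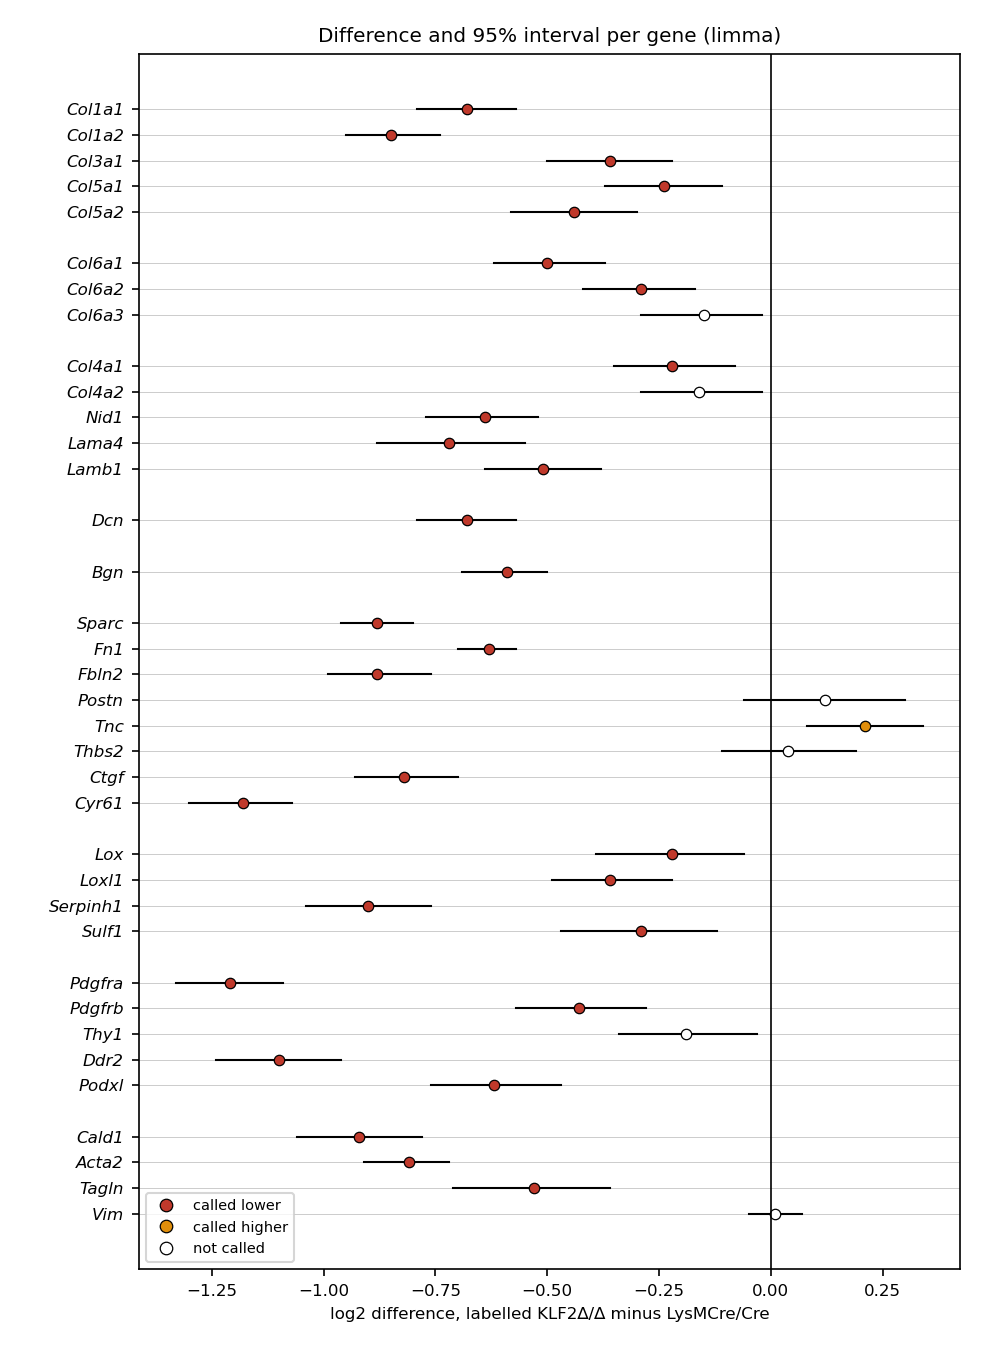
Log2 difference (arrays labelled KLF2∆/∆ minus LysMCre/Cre arrays) of the 36 tested genes with the 95% interval of the limma fit, in the role groups of the text; red, called lower; orange, called higher; white, not called. The differences run from -1.21 (Pdgfra) to 0.21 (Tnc), and 29 of the 36 points are red.

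All 4 genes of matrix processing fell. Serpinh1 encodes HSP47, the chaperone that collagen chains need in the endoplasmic reticulum. It gave 9.30, 9.33 and 9.07 in the arrays labelled KLF2∆/∆ and 10.13, 10.13 and 10.14 in LysMCre/Cre arrays, and fell by 0.90 ± 0.066 (SE, 1.87-fold, adjusted p = 2.01e-09). The lysyl oxidase gene Lox, whose product cross-links collagen and elastin, gave 9.11, 9.46 and 9.16 in the arrays labelled KLF2∆/∆ and 9.42, 9.57 and 9.41 in LysMCre/Cre arrays. Replicate 2 of the arrays labelled KLF2∆/∆ lay above 2 of the LysMCre/Cre arrays. Lox fell by 0.22 ± 0.079 (adjusted p = 0.0398) but was not called under 7 of 15 alternatives, with adjusted p of up to 0.220 (-0.15) without KLF2∆/∆ replicate 1. Without KLF2∆/∆ replicate 3 it differed by -0.18 (adjusted p = 0.113), and without LysMCre/Cre replicate 2 by -0.17 (adjusted p = 0.183). Its relative Loxl1 fell by 0.36 (adjusted p = 0.000320). Sulf1, which edits heparan sulfate, fell by 0.29 (adjusted p = 0.0116), a call lost without KLF2∆/∆ replicate 3 (-0.21, adjusted p = 0.0551) and without LysMCre/Cre replicate 2 (-0.25, adjusted p = 0.0594).

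Receptors and surface markers of stromal cells included the largest fall of the 36 tested members. Pdgfra, the receptor that marks fibroblasts in many tissues, gave 9.53, 9.69 and 9.50 in the arrays labelled KLF2∆/∆ and 10.81, 10.77 and 10.79 in LysMCre/Cre arrays, and fell by 1.21 ± 0.058 (SE, 2.32-fold, adjusted p = 5.89e-12). It ranked at number 19 among the falls of all 12649 tested genes. Ddr2, a receptor for fibrillar collagen, gave 8.66, 8.78 and 8.55 in the arrays labelled KLF2∆/∆ and 9.78, 9.74 and 9.76 in LysMCre/Cre arrays. Ddr2 fell by 1.10 ± 0.066 (2.14-fold, adjusted p = 1.08e-10). For both receptors the groups lay further apart than the arrays within either group spread. Podxl, a sialomucin of mesothelial cells, podocytes and endothelium, gave 8.08, 8.14 and 8.11 in the arrays labelled KLF2∆/∆ and 8.64, 8.83 and 8.70 in LysMCre/Cre arrays, and fell by 0.62 ± 0.070 (adjusted p = 8.04e-07). Pdgfrb, the receptor shared by fibroblasts and pericytes, fell by 0.43 (adjusted p = 8.57e-05). Thy1, a surface glycoprotein of fibroblasts and T cells, differed by -0.19 and did not pass (adjusted p = 0.0677).

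Of 4 cytoskeletal genes, 3 fell. Acta2, smooth muscle actin and the usual mark of myofibroblasts, gave 10.70, 10.76 and 10.70 in the arrays labelled KLF2∆/∆ and 11.56, 11.54 and 11.50 in LysMCre/Cre arrays. Cald1, the gene of the actin regulator caldesmon, gave 9.31, 9.35 and 9.09 in the arrays labelled KLF2∆/∆ and 10.17, 10.22 and 10.12 in LysMCre/Cre arrays. Tagln, the gene of the actin-binding protein transgelin, gave 8.26, 8.12 and 8.06 in the arrays labelled KLF2∆/∆ and 8.88, 8.58 and 8.58 in LysMCre/Cre arrays. None of the 3 overlapped between groups: Acta2 fell by 0.81 ± 0.046 (SE, adjusted p = 4.92e-11), Cald1 fell by 0.92 ± 0.067 (adjusted p = 1.74e-09) and Tagln fell by 0.53 ± 0.083 (adjusted p = 4.39e-05). Vim, the intermediate filament of mesenchymal cells and of macrophages, was the brightest member and gave 13.86, 13.82 and 13.79 in the arrays labelled KLF2∆/∆ and 13.80, 13.81 and 13.83 in LysMCre/Cre arrays. Its groups overlapped, and its difference was 0.0098 (95% interval -0.05 to 0.07, adjusted p = 0.843).

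Among the members, brighter genes tended to have more negative differences. Across the 36 tested members, Pearson's r between the log2 difference and the 6-array mean log2 intensity was -0.35 and Spearman's rho -0.53. Members share arrays and normalization, so this is a description. The middle 50% of the members' log2 differences lay between -0.82 and -0.23. Members at the dim end (Postn, Sulf1, Thy1 and Thbs2, with 6-array means of 7.54 to 7.90) differed by 0.29 or less in either direction. The tendency had exceptions: the next dimmest, Lama4 (6-array mean 8.18), fell by 0.72, and the brightest, Vim, differed by 0.0098.

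**Figure D3:**
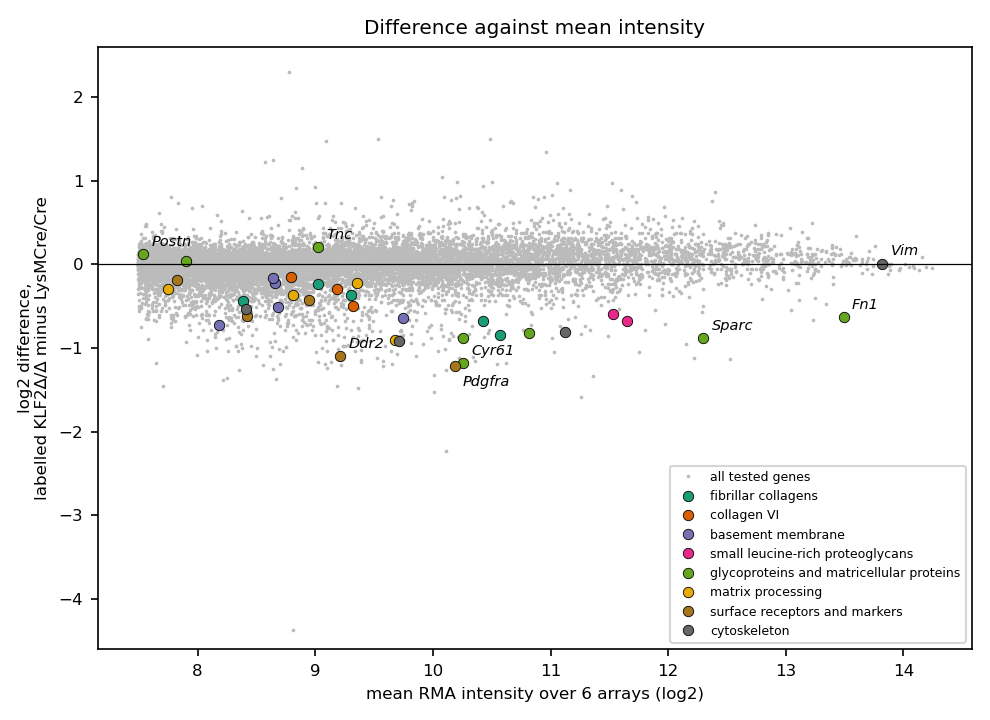
Log2 difference (arrays labelled KLF2∆/∆ minus LysMCre/Cre arrays) against the mean RMA intensity over 6 arrays (log2) for all 12649 tested genes (grey) and the 36 members (coloured by role). Most members lie under 0 across the range of brightness, with Vim at 0.0098 at the bright end and Postn at 0.12 at the dim end.

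The arrays labelled KLF2∆/∆ also differed among themselves. Replicate 2 was the highest of its group for 26 of the 36 members (72.2%) and replicate 3 the lowest for 19 (52.8%), where the shares over all tested genes were 49.0% and 35.7%. The median deviation of a member from its own 6-array mean was -0.26, -0.24 and -0.30 in replicates 1, 2 and 3 of the arrays labelled KLF2∆/∆, against 0.25, 0.28 and 0.23 in the LysMCre/Cre arrays. The SD was larger in the arrays labelled KLF2∆/∆ for 26 of 36 members (72.2%), close to the 69.5% of all tested genes. Without KLF2∆/∆ replicate 2 the counts were again 29 lower and 1 higher, and without KLF2∆/∆ replicate 3 they were 27 and 1.

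**Figure D4:**
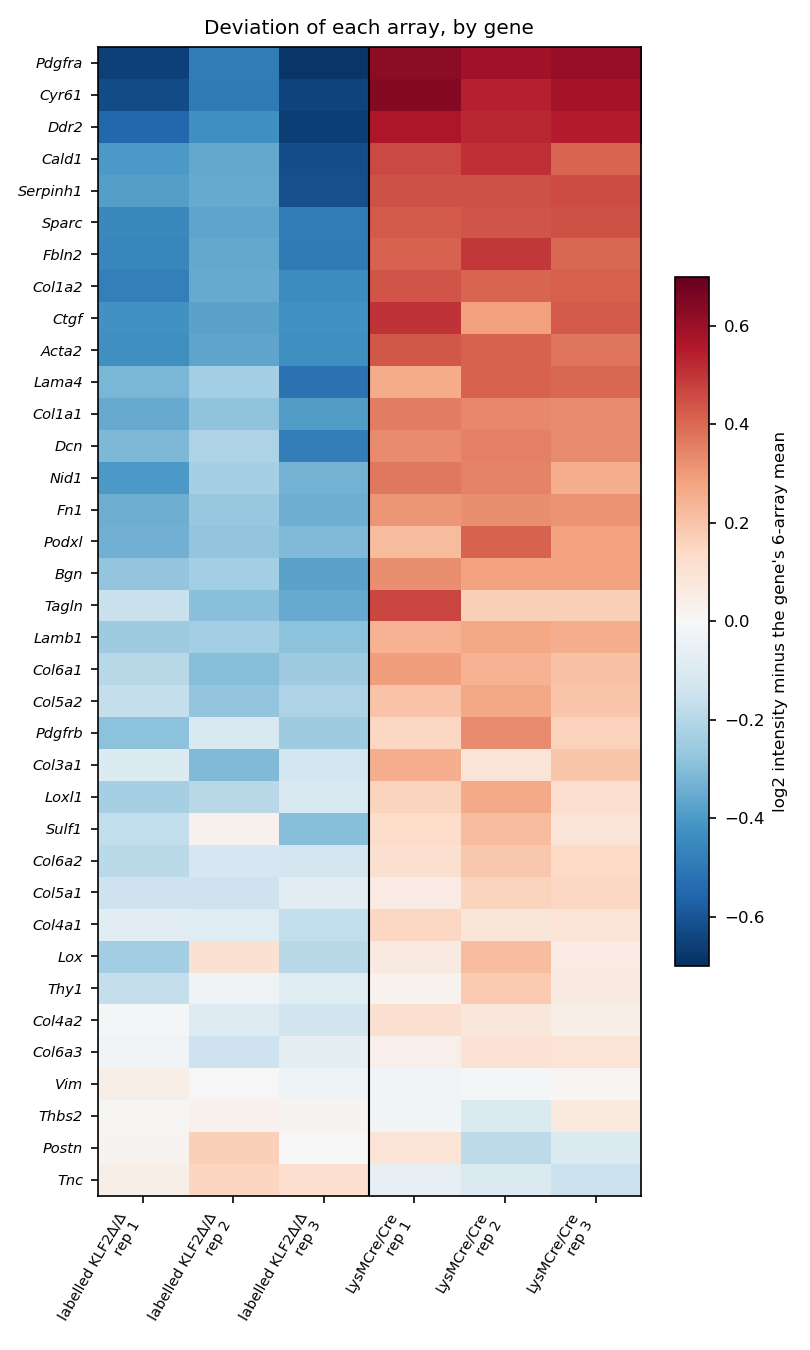
Each cell gives the log2 intensity of 1 array minus the gene's mean over 6 arrays, for the 36 tested genes ordered by their log2 difference, with the arrays labelled KLF2∆/∆ left of the line and LysMCre/Cre arrays right of it. The columns have median deviations of -0.26, -0.24 and -0.30 left of the line and 0.25, 0.28 and 0.23 right of it.

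Some members lie next to each other in the genome. With no protein-coding gene between them in RefSeq, Col3a1 and Col5a2 (chromosome 1) differed by -0.36 and -0.44, Col6a1 and Col6a2 (chromosome 10) by -0.50 and -0.29, and Col4a1 and Col4a2 (chromosome 8) by -0.22 and -0.16 on the log2 scale.

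Genes of the same pathway outside the set were read from lists fixed with the set's results known. Of 19 tested enzymes and chaperones that modify collagen, 7 fell, 2 rose and 10 did not pass (median log2 difference -0.13). For this list and those below, the shares over all tested genes were 16.2% lower and 13.6% higher by the same rule. The 2 that rose were Plod1 (0.20, adjusted p = 0.00504) and P4ha1 (0.17, adjusted p = 0.0193). Bmp1, the protease that trims procollagen, fell by 0.82 (adjusted p = 4.81e-10), Crtap, a subunit of the prolyl 3-hydroxylase complex, by 0.80 (adjusted p = 1.21e-08), and the lysyl hydroxylase gene Plod2 by 0.88 (adjusted p = 2.49e-08). Of 32 other matrix proteins 16 fell, 2 rose and 14 did not pass (median -0.17). Hspg2, the gene of the basement membrane proteoglycan perlecan, fell by 0.90 (adjusted p = 1.24e-10) and Ltbp1, which holds latent TGF-beta in the matrix, by 0.60 (adjusted p = 1.27e-06). Tgfbi, an adhesion protein that macrophages also make, rose by 0.76 (adjusted p = 3.65e-09), and Vcan rose by 0.25 (adjusted p = 2.55e-05). The remaining collagens mostly did not pass: of 30 tested, 2 fell (Col12a1, -0.29, adjusted p = 0.00431, and Col24a1, -0.18, adjusted p = 0.0427), none rose by limma (1 at an unadjusted p of 0.05), and the median was 0.019. Col12a1 had a mean of 7.35 in the arrays labelled KLF2∆/∆, under the filter, and 7.64 in LysMCre/Cre arrays. Efemp1, among the other matrix proteins that fell, was also under the filter in the arrays labelled KLF2∆/∆ (7.28, against 7.87).

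Other cell types of the cavity and its wall were read in the same arrays. Of 11 tested further fibroblast markers, 6 fell and none rose by limma, nor at an unadjusted p of 0.05 (median -0.22). The falls were led by Mxra8 (-0.79, adjusted p = 4.55e-09), Fstl1 (-0.57, adjusted p = 1.38e-07) and the mesenchymal transcription factor Prrx1 (-0.61, adjusted p = 6.55e-07). Pdpn, the brightest of the list, did not pass (0.03, adjusted p = 0.509). Neither did Gli1 (0.05), Pi16 (0.04), Twist2 (-0.16) and Cd248 (-0.15), while Fap, Meox1, Meox2 and Tcf21 lay below the filter. Mesothelial markers fell in 9 of 13 cases and rose in none by limma, nor at an unadjusted p of 0.05 (median -0.38), with Upk1b at -1.17 (adjusted p = 6.53e-11), Lrrn4 at -1.01 (adjusted p = 6.62e-10) and Wt1 at -0.92 (adjusted p = 9.98e-10). Msln (-0.03, adjusted p = 0.781), Krt7, Rspo1 and Cldn15 did not pass, and Muc16 lay below the filter. The summed linear intensity of the 14 mesothelial probe sets was 4644 to 4958 in the arrays labelled KLF2∆/∆ and 7173 to 7278 in LysMCre/Cre arrays. For the 37 matrix and fibroblast probe sets the sum was 48635 to 51499 in the arrays labelled KLF2∆/∆ and 71081 to 71330 in LysMCre/Cre arrays. Bright probe sets weigh most in a linear sum. The brightest here were Vim, Fn1 and Sparc (6-array means of 13.82, 13.49 and 12.30), which macrophages also make. The part of mesothelial cells in the members' differences was not tested.

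Of 9 smooth muscle and pericyte markers 3 fell and none rose by limma, nor at an unadjusted p of 0.05 (median -0.014): Des (-0.90, adjusted p = 6.21e-09), Smtn (-0.46, adjusted p = 5.66e-06) and Myl9 (-0.58, adjusted p = 2.97e-05). Summed intensity over the list's 13 probe sets was 3098 to 3126 in the arrays labelled KLF2∆/∆ and 3694 to 3782 in LysMCre/Cre arrays. The smooth muscle marker Cnn1 and the pericyte marker Rgs5 lay below the filter. Endothelial markers fell in none of 8 cases by limma (1 at an unadjusted p of 0.05) and Kdr rose (1.25, adjusted p = 1.96e-11). The median of the list was -0.0049, and Pecam1, Tek, Emcn and Robo4 lay below the filter. Summed intensity over the list's 12 probe sets was 3192 to 3342 in the arrays labelled KLF2∆/∆ and 2908 to 2940 in LysMCre/Cre arrays. Without Kdr the sums overlapped, at 2599 to 2708 in the arrays labelled KLF2∆/∆ and 2648 to 2679 in LysMCre/Cre arrays.

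The labelled cell type was present by its markers: all 13 general macrophage markers passed the filter. Of these 8 rose, 2 fell and 3 did not pass (median 0.19), with Fcgr1 at 0.47 (adjusted p = 7.32e-09) and C1qb and Spi1 at 0.23 each (adjusted p = 1.19e-05 and 1.45e-05). The 2 that fell were Cd14 (-0.26, adjusted p = 0.000190) and Itgam (-0.21, adjusted p = 0.000734), and C1qa, Cd68 and Lyz2 did not pass. The summed linear intensity of the 13 markers was 71345 to 72466 in the arrays labelled KLF2∆/∆ and 64752 to 65286 in LysMCre/Cre arrays. Resident peritoneal macrophage markers went the other way, with 7 of 9 falling, none rising by limma (also none at an unadjusted p of 0.05) and a median of -0.61. Prg4 had 6.63 ± 0.14 in the arrays labelled KLF2∆/∆, which is under the filter, and 11.00 ± 0.15 in LysMCre/Cre arrays (SD, n = 3 each; adjusted p = 2.00e-18). Vsig4 fell by 1.52 (adjusted p = 6.06e-13) and Cxcl13 by 1.15 (adjusted p = 1.20e-10). F5, also among the falls, had a mean of 7.26 in the arrays labelled KLF2∆/∆, under the filter, and 7.78 in LysMCre/Cre arrays. The summed intensity of the 9 probe sets was 3674 to 3977 in the arrays labelled KLF2∆/∆ and 8990 to 9372 in LysMCre/Cre arrays. Whether resident or general macrophages have a part in the members' differences was not tested.

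**Figure D5:**
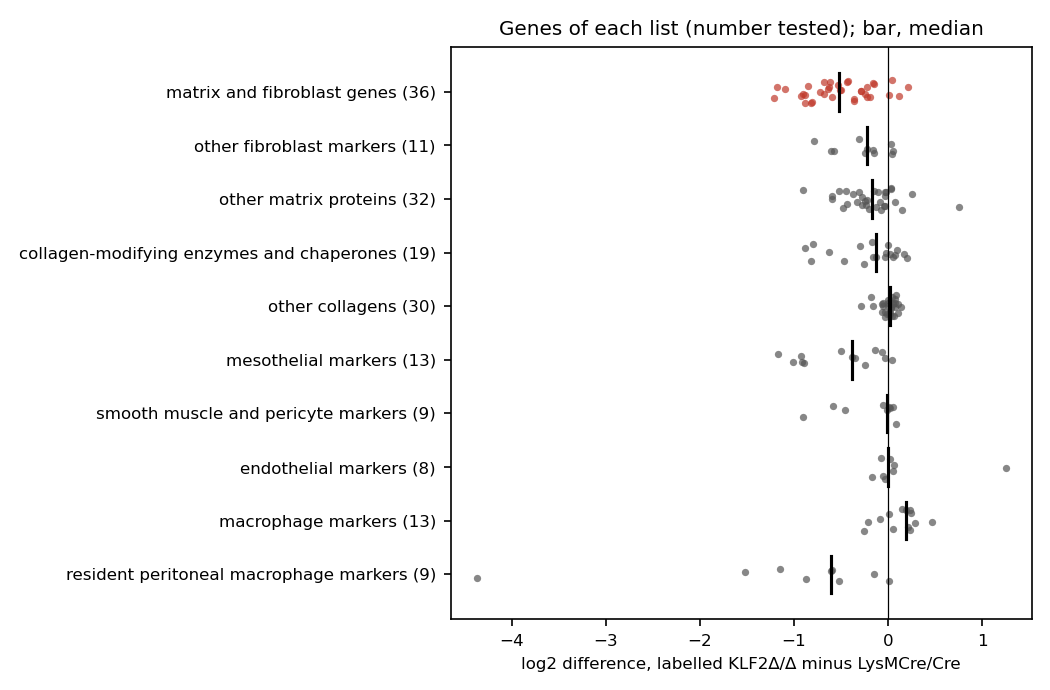
Log2 difference (arrays labelled KLF2∆/∆ minus LysMCre/Cre arrays) of each tested gene, by list, with the number of genes tested in brackets and a bar at the median. The matrix and fibroblast genes have a median of -0.52, mesothelial markers of -0.38, other collagens of 0.019, endothelial markers of -0.0049 and macrophage markers of 0.19.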

How the data were processed

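RNA of 6 arrays was measured, 3 labelled KLF2∆/∆ and 3 labelled LysMCre/Cre, from 150 ng of total RNA each. The values used are the log2 intensities the authors deposited for each probe set. Per the submitters' processing notes they were made with RMA (background correction, quantile normalization and probe summary) in Affymetrix Expression Console. A second deposited table gives the same values as linear intensity per the file headers, equal within 5.1e-05 after log2. RMA compresses ratios of dim probe sets, and the sources used here give neither versions nor scan dates, so batches were not tested. The number of arrays limits the precision.

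Of 35557 probe sets, 6613 controls were left out. Of the other 28944, 21789 name 1 gene, 1621 several and 5534 none. Symbols were updated by gene identifier to RefSeq GRCm38.p6 (21698 matched). Each gene took its brightest single-gene probe set over 6 arrays, which for all 37 matched members was the only one. Genes with a 6-array mean under the 40th percentile (log2 7.49) were not tested. The comparison of groups was a two-sided limma fit (version 3.58.1, R 4.3.3; lmFit, eBayes with trend) without a replicate block; p-values were Benjamini-Hochberg adjusted over 12649 genes. The fit was tested on simulated data. Alternatives are in the closing section. The members and lists were chosen with earlier results of these data known. All members are named; per-array values are given for the 2 brightest of each role group, for called members with a difference of at least 0.5, and for called members against the main direction. From other lists up to 3 called genes with the smallest p are named. Genes below the filter or with a group mean below it were added after their values were seen. So were falling or uncalled macrophage markers, uncalled mesothelial and fibroblast markers, rising collagen-modifying enzymes and Vcan. Figures used matplotlib 3.10.9.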

Additional observations from a re-analysis of the deposited data

How the results depend on the processing

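Under each alternative tried, between 26 and 30 of the tested members were called lower. Over all tested genes the share called lower was 10.3% with no filter and 19.4% with the filter at the 60th percentile, and 11.7% at an adjusted p of 0.01; the other alternatives lay between the first and second of these. Of the 30 called members, 25 kept their call and direction in all 15 alternatives. Lox, Sulf1, Col4a1 and Tnc lost it in at least 1, and Lama4 kept it in the 14 that tested it, since it lay below the filter at the 60th percentile. With the replicate block 29 members were lower and 1 higher, and 3824 genes were called in all, against 3766 without it; the block changed no member's call. Same-numbered arrays had correlations of deviations of -0.0906, 0.115 and -0.0491, and 2 of 6 arrays correlated best with their own number. With 3 arrays per group these values cannot show whether arrays were paired. Although the design notes describe mice in pairs, equal replicate numbers are not said to mark a pair, so the main fit had no block. The members' median of -0.52 became -0.49 after quantile normalization was applied again (which moved the median of all genes to 0.021) and -0.59 when the filter stood at the 60th percentile, where 31 members were tested. Leaving out 1 array at a time gave medians of -0.55 to -0.50, 27 to 29 members lower and 0 to 1 higher. At an adjusted p of 0.01, 26 members were lower and 0 higher (1 higher, Tnc, at an adjusted p of 0.05). Thy1 was called with array weights (adjusted p = 0.0496) and without the intensity trend (adjusted p = 0.0449). For Thbs2 the difference ran from -0.0035 to 0.081 and for Vim from -0.0067 to 0.024 when single arrays were left out, the negative values coming without LysMCre/Cre replicate 2 and without KLF2∆/∆ replicate 1. Dim signals limit what can be said of Lum and Postn. The causes of these shifts were not tested.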
